A study of Mus musculus with 6 samples.

Results

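Notch signalling genes were followed in basal cells sorted from mouse esophageal epithelium. The 10 genes were 3 receptors (Notch1, Notch2 and Notch3), 3 ligands (Jag1, Jag2 and Dll1), the receptor-modifying enzyme Lfng, the nuclear effector Rbpj, and the target genes Hes1 and Hey1. They were taken by symbol from a table of 24016 genes, and all 10 had a row. The table holds 6 libraries, 3 of GFP-negative cells (Krt15- in the labels) and 3 of GFP-positive cells (Krt15+ in the labels). Both groups came from mice carrying the transgene Krt15-CrePR1, an RU486-inducible Cre under the Krt15 promoter, and the Cre reporter R26mTomato/mGFP. All mice had received 1 mg of RU486 and cells were taken 24 h later. Both gates asked for high CD29 (integrin beta-1, a basal cell surface protein), and the groups differ by GFP alone. GFP marks cells in which Cre acted, so a GFP-negative cell may still express Krt15. The labels give neither the age of the mice nor whether each library came from its own animal, so p-values reflect only how far these libraries spread, part of which may be technical.

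Notch receptors are single-pass proteins that are cut when a Jagged or Delta-like ligand on a neighbouring cell binds them. The freed intracellular part enters the nucleus, joins the DNA-binding protein Rbpj and switches on genes such as Hes1. In stratified epithelia, ligands and receptors are found in and just above the basal layer, and Notch activity is known to favour differentiation.

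Values are FPKM, fragments per kilobase of transcript and per M mapped fragments (M, mega), so levels can be compared between genes, though only roughly. Polr2a, a gene that every cell uses, stood at 0.00583, 0.0103 and 0.0182 FPKM in GFP-negative and at 5.17, 1.00 and 1.49 FPKM in GFP-positive libraries. A low value can therefore be a poor estimate. One library, GFP-negative replicate 1, lay apart: it had 3247 genes at 1 FPKM or more against 6906 to 9194 in the other 5. Depth, estimated from the value that a single fragment takes, was 27.6 to 41.7 M fragments per library, and 29 M in the GFP-negative replicate 1 library. All 10 basal keratinocyte markers were above 0 in all 6 libraries, and Krt15 itself stood at 2350 to 6784 FPKM in GFP-negative and at 2420 to 9692 FPKM in GFP-positive libraries. The basal markers summed to 3967, 11146 and 5304 FPKM in GFP-negative and to 5734, 14143 and 3904 FPKM in GFP-positive libraries. The 10 suprabasal markers summed to more in every library, to 37994, 31640 and 9301 FPKM and to 8947, 24516 and 53196 FPKM. Much of this came from Krtdap, at 33634, 22532 and 0 FPKM and at 7254, 13640 and 41287 FPKM. In some libraries the order of the basal and suprabasal sums rests on that gene.

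In these sorted cells the Notch set was led by Hes1, a repressor of the bHLH family, and the only other member at 1 FPKM or more in all 6 libraries was Notch1. Hes1 stood at 93.1, 235 and 253 FPKM in GFP-negative replicates 1 to 3 and at 196, 356 and 169 FPKM in the GFP-positive ones. It was the highest member in every library, where it made up 80.3% to 98.4% of the summed FPKM of the 10 genes. The next highest value of any member was 24.8 FPKM. Ordered by mean level over the libraries, Hes1 (217 FPKM) was followed by Jag1 (6.98), Notch1 (4.71), Dll1 (4.30), Jag2 (2.30), Hey1 (1.98), Rbpj (1.23), Lfng (0.884), Notch3 (0.585) and Notch2 (0.351). Apart from the step below Hes1, values of neighbours in this order overlapped across libraries.

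**Figure D1:**
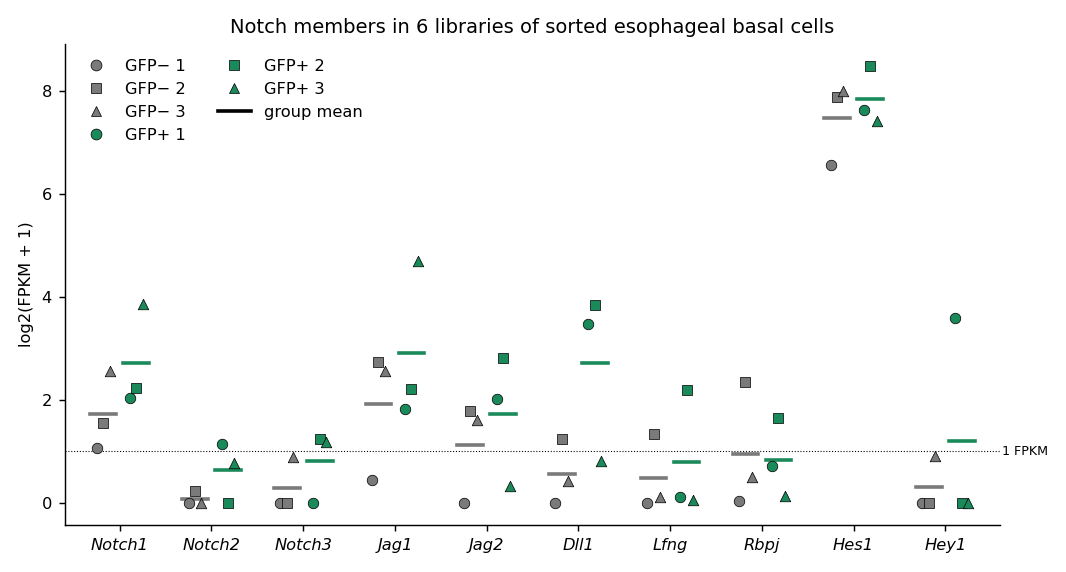
Level of each of the 10 Notch genes in each library, as log2(FPKM + 1). Grey symbols are GFP-negative and green symbols GFP-positive libraries, the symbol shape gives the replicate, horizontal bars are group means, and the dotted line is 1 FPKM. Hes1 lies far above the rest in all 6 libraries, and the groups overlap for every gene.

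No member passed the test for a difference between GFP-positive and GFP-negative cells. Across the table, 0 of 9423 genes averaging 1 FPKM or more were called at an adjusted p below 0.05 (0%, limma), and 370 (3.93%) had an unadjusted p below 0.05. Of the 10 members, 7 reached that mean and were tested, 0 were called and 0 had an unadjusted p below 0.05. Notch2, Notch3 and Lfng lay below the limit and are given by their values alone. The groups overlapped for all 10 members, whereas 8.85% of tested genes were higher without overlap and 2.44% lower without overlap in GFP-positive libraries. The difference, GFP-positive minus GFP-negative on the log2(FPKM + 1) scale, was above 0 for 6 of the 7 tested members, as it was for 68.6% of all genes tested. Under each of the 3 replicate numbers shared by the groups, which are not known to mark pairs, Notch1 and Dll1 (2 of the 7) were higher in the GFP-positive library, as were 20.9% of all genes tested. The median difference of the 7 was 0.89, the value of Hey1, beside 0.63 for all genes. Without the GFP-negative replicate 1 library, where all 10 members had their lowest value or shared it, these medians were 0.27 and 0.03. With quantile normalization they were 0.22 and 0.04. Dll1 and Hey1 reached the limit for testing only through their GFP-positive values, so the count above 0 and the median of the members carry little weight. In these bulk libraries, fewer cells expressing a gene and less RNA per cell cannot be told apart. Fibroblast markers were mostly lower in GFP-positive libraries, though their sums overlapped. The 10 genes summed to 176 to 788 FPKM in GFP-negative and to 71.3 to 179 FPKM in GFP-positive libraries. Of them, 8, 8 and 9 were above 0 in GFP-negative libraries against 1, 3 and 6. Col1a1, Col1a2, Col3a1, Dpt, Mfap5 and Vim were lower in every GFP-positive library than in any GFP-negative one, as were 2.44% of tested genes. Vim stood at 72.5, 43.2 and 35.5 FPKM against 0, 3.51 and 0.0744 FPKM. For Lum, Pdgfra and Thy1 the groups overlapped at 0. Col1a2 and Lum were at 0 in all GFP-positive libraries. Dcn, most of the GFP-positive sum, overlapped, at 13.9, 267 and 457 FPKM against 167, 176 and 71.1 FPKM. Myeloid markers summed to 321 to 940 FPKM and to 146 to 7317 FPKM, the highest sum in GFP-positive replicate 1. There 7279 FPKM came from Lyz2 alone, and Tyrobp, another of these markers, was at 0 (203, 124 and 31.0 FPKM in GFP-negative libraries). Among other lists, glial and neural markers summed to at most 2.08 FPKM. The part of these cells in the Notch values was not tested.

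Among the receptors, Notch1, the main Notch receptor of keratinocytes, was detected throughout. It stood at 1.11, 1.94 and 4.89 FPKM in GFP-negative replicates 1 to 3 and at 3.08, 3.70 and 13.5 FPKM in the GFP-positive ones (2.65 ± 1.99 and 6.77 ± 5.85, SD, n = 3). GFP-positive replicate 3 was the highest library, 2.76 times the next, and the other GFP-positive values lay within the GFP-negative range. The difference was 0.98 (SE 1.12, 95% CI -1.48 to 3.43, limma adjusted p = 0.82), 0.40 without GFP-positive replicate 3, and it turned to -0.52 with quantile normalization. The interval spans both a lower level and a several-fold higher one, so these libraries set no narrow bound on Notch1.

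Notch2 and Notch3 averaged less than 1 FPKM. Notch2, a second receptor of the family, stood at 0, 0.181 and 0.00462 FPKM in GFP-negative libraries and at 1.21, 0.00535 and 0.702 FPKM in GFP-positive ones. The values of 0.00462 and 0.00535 FPKM amount to about 1.9 fragments each, while 1.21 FPKM amounts to about 350 fragments over a transcript of 10.5 kb. Notch3 was listed at 0 in GFP-negative replicates 1 and 2 and in GFP-positive replicate 1. It stood at 0.856 FPKM in the remaining GFP-negative library and at 1.37 and 1.28 FPKM in the remaining GFP-positive ones, about 272, 376 and 309 fragments. Notch3 is also known from mural cells of vessels, whose markers summed to 0.148 to 8.06 FPKM in GFP-negative and 0.801 to 9.94 FPKM in GFP-positive libraries. The 3 libraries with Notch3 were the 3 with the highest mural sums, most of which was Acta2 (5.94, 9.94 and 9.79 FPKM). Of the 10 mural markers, Rgs5, Myh11, Kcnj8, Abcc9 and Cnn1 were at 0 in all 6 libraries. Pdgfrb was above 0 only in GFP-negative replicate 3 (0.868 FPKM), one of the libraries with Notch3, and Des stood at 0.999 FPKM there. Cspg4 was highest in GFP-positive replicate 1 (0.739 FPKM), where Notch3 was at 0. Tagln was at 0 in all libraries with Notch3. It stood at 0.383 and 0.0157 FPKM in GFP-negative replicates 1 and 2 and at 0.0476 FPKM in GFP-positive replicate 1. The part of mural cells in the Notch3 values was not tested.

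The ligands varied widely between libraries. Jag1, a Jagged ligand, stood at 0.370, 5.67 and 4.87 FPKM in GFP-negative replicates 1 to 3 and at 2.55, 3.66 and 24.8 FPKM in the GFP-positive ones. GFP-positive replicate 3 was 4.37 times the next library, and the other GFP-positive values fell between the GFP-negative ones. The Jag1 difference was 1.00 (SE 1.25, 95% CI -1.74 to 3.74, limma adjusted p = 0.83), 0.11 without GFP-positive replicate 3 and -0.34 with quantile normalization.

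Jag2, the second Jagged ligand, stood at 0, 2.44 and 2.06 FPKM in GFP-negative libraries and at 3.08, 6.01 and 0.250 FPKM in GFP-positive ones. GFP-positive replicate 3, the highest library for Jag1, was the second lowest for Jag2. The difference was 0.59 (SE 1.07, limma adjusted p = 0.89), was 0.02 without GFP-negative replicate 1, and turned to -0.13 without both replicate 1 libraries.

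Dll1, a Delta-like ligand, had the largest difference of the members. It stood at 0, 1.36 and 0.349 FPKM in GFP-negative replicates 1 to 3 and at 10.1, 13.3 and 0.767 FPKM in the GFP-positive ones (0.569 ± 0.705 and 8.04 ± 6.50, SD, n = 3). GFP-positive replicates 1 and 2 were far above all other libraries, and replicate 3 lay inside the GFP-negative range. The difference was 2.15 (SE 1.13, 95% CI -0.33 to 4.63, unadjusted p = 0.083, limma adjusted p = 0.79). It was above 0 in all 18 alternatives that gave a value, between 1.07 and 3.60, with limma adjusted p between 0.48 and 0.98. No alternative left out both GFP-positive replicates 1 and 2. Dll1 also reached the limit for testing only through its GFP-positive values, so its constant sign carries little weight.

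The most abundant ligand changed from library to library. Jag1 was the one ligand above 0 in GFP-negative replicate 1, and made up 59.9% and 66.9% of the summed FPKM of the 3 ligands in GFP-negative replicates 2 and 3. In GFP-positive replicates 1 and 2 its share was 16.3% and 15.9%, and Dll1 took 64.1% and 57.9%. In GFP-positive replicate 3 Jag1 took 96.1% and Dll1 2.97%. The summed ligand level, a measure chosen after the values were seen, was 0.370, 9.47 and 7.27 FPKM in GFP-negative and 15.7, 22.9 and 25.8 FPKM in GFP-positive libraries (5.70 ± 4.75 and 21.5 ± 5.20, SD, n = 3). Here the groups did not overlap, as for 8.85% of single genes, and they did not overlap with upper-quartile or median-of-ratios scaling either. Quantile normalization was not applied to the sum. No test is given for this sum, because its members were known when it was chosen. The receptors summed to 1.11, 2.12 and 5.75 FPKM against 4.29, 5.08 and 15.5 FPKM, with overlap.

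**Figure D2:**
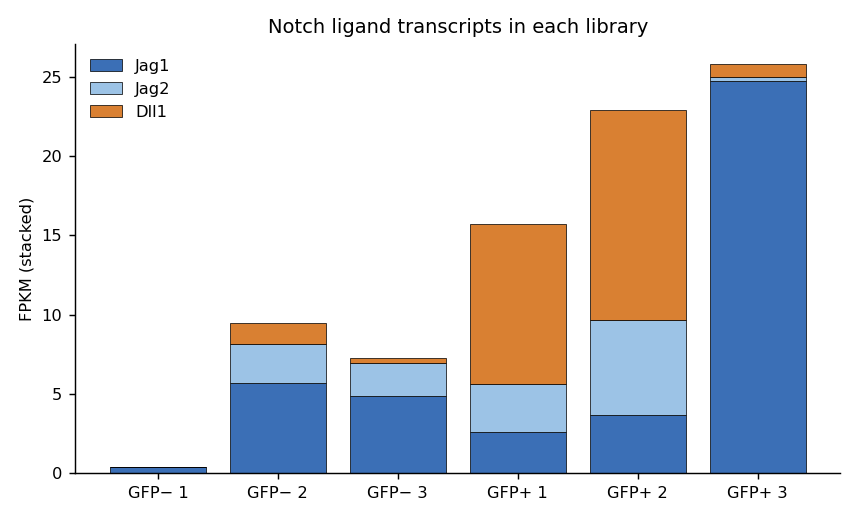
Stacked FPKM of the ligands Jag1, Jag2 and Dll1 in each library (bars start at 0, 1 bar per library). The GFP-positive sums of 15.7, 22.9 and 25.8 FPKM lie above the GFP-negative ones, with Dll1 the largest part in GFP-positive replicates 1 and 2 and Jag1 in replicate 3.

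Lfng, the Lunatic fringe glycosyltransferase that extends sugars on Notch and shifts its response between ligand classes, stood at 0, 1.54 and 0.0782 FPKM in GFP-negative and at 0.0802, 3.56 and 0.0441 FPKM in GFP-positive libraries. Outside the replicate 2 libraries it amounted to at most about 7.1 fragments. Rbpj, the DNA-binding protein through which all Notch receptors act, stood at 0.0243, 4.07 and 0.412 FPKM and at 0.647, 2.12 and 0.0925 FPKM. Its difference was -0.13 (SE 0.93, 95% CI -2.17 to 1.91, limma adjusted p = 0.98), with values above 0 in 3 of 15 alternatives, up to 0.22. Both genes had their highest values in the replicate 2 libraries of both groups. The GFP-negative replicate 2 library also held T and NK lymphocyte markers that summed to 610 FPKM (7 of 9 measured above 0), against at most 0.782 FPKM elsewhere. Lymphocytes are known to use Notch signalling, and their part in the Lfng and Rbpj values was not tested. In GFP-positive replicate 2, where Lfng was highest, these markers summed to 0.0102 FPKM.

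Upstream sequences were set beside these patterns for the 2 genes that shared their highest libraries, Lfng and Rbpj, and for the 2 that were highest in GFP-positive replicate 3, Notch1 and Jag1. They are the 250 bases before the annotated start, 5′ to 3′ on the gene's strand, from RefSeq on GRCm38.p6, a later build than the mm9 named for the data. Capitals mark TGGGAA, the core of the Rbpj binding motif, on either strand (TTCCCA where it lies on the other strand).
Lfng (chr5:140607091-140607340, plus strand): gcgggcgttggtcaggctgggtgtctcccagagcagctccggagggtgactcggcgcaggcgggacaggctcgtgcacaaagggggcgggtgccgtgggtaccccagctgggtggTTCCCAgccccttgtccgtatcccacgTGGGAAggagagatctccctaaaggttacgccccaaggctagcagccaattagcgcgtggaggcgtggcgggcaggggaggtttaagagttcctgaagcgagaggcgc
Rbpj (chr5:53590096-53590345, plus strand): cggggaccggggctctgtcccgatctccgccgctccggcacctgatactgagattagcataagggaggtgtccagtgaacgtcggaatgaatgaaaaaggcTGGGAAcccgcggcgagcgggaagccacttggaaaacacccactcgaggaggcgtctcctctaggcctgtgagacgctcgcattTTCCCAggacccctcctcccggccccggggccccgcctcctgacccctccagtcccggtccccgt
Notch1 (chr2:26503823-26504072, minus strand): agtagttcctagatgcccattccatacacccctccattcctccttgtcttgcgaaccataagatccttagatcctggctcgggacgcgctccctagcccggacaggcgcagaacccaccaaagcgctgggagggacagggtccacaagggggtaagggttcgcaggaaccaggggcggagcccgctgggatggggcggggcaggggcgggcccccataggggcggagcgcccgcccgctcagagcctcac
Jag1 (chr2:137116521-137116770, minus strand): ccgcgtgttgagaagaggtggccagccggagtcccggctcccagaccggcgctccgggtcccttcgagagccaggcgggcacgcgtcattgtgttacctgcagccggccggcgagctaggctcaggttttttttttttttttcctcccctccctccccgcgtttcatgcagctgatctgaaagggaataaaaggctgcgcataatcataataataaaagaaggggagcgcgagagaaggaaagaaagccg
The windows of Lfng and Rbpj held 2 such matches each, and those of Notch1 and Jag1 held 0. RefSeq gives Rbpj a second start, whose window (chr5:53590236-53590485) overlaps the first. It held 1 match, the same TTCCCA that is marked in the first window. Of all 32851 windows of this length, 21.6% held at least 1 match on either strand. RefSeq windows were matched for 8 of the 10 members, not for Hes1 and Hey1, and the windows of Notch2, Notch3, Jag2 and Dll1 held 0 matches. The N-box CACNAG, a motif of Hes proteins, was also searched on both strands. It was found once in the windows of Lfng and Notch1, in neither that of Rbpj nor that of Jag1, and in 36.7% of all windows. A match is a description of the letters, not a measured site.

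The target genes differed from each other in level and in spread. Hes1 had the narrowest spread on the log2 scale in GFP-positive libraries of any member above 1 FPKM on average (SD 0.57 in GFP-positive and 0.80 in GFP-negative libraries). Its means were 194 ± 87.5 and 240 ± 101 FPKM (SD, n = 3). The difference was 0.36 (SE 0.65, 95% CI -1.05 to 1.78, limma adjusted p = 0.89). Its sign reversed with upper-quartile scaling (-0.10), as it did at -0.13 with median-of-ratios scaling and at -0.10 without GFP-negative replicate 1. Hey1, a related repressor, was listed at 0 in 4 libraries and stood at 0.893 FPKM in GFP-negative replicate 3 and at 11.0 FPKM in GFP-positive replicate 1. Its difference of 0.89 (SE 1.05, limma adjusted p = 0.83) therefore rests on that last library, and without it, with 0 in both other GFP-positive libraries, Hey1 no longer reached the limit for testing. Hey1 is also known from endothelium. Endothelial markers summed to 0.00396 FPKM in GFP-positive replicate 1 and to at most 17.1 FPKM in any library. That highest sum was in GFP-negative replicate 3, the other library with Hey1, and most of it was Esam. Pecam1 stood at 3.87 FPKM there and at 0 elsewhere. The next highest sums were in GFP-negative replicate 1 and GFP-positive replicate 2, where Hey1 was at 0. Cdh5, Emcn, Cldn5 and Tie1 were at 0 in all 6 libraries. The part of endothelial cells in the Hey1 values was not tested.

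**Figure D3:**
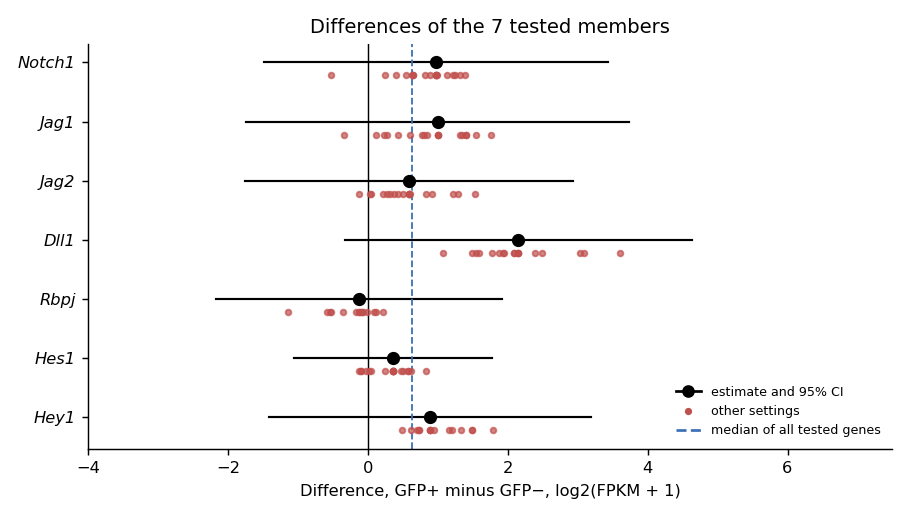
Difference of each of the 7 tested members, GFP-positive minus GFP-negative, on the log2(FPKM + 1) scale. Black points and lines are estimates with 95% confidence intervals from limma, small red points are the other processing settings, and the dashed line is the median of all tested genes (0.63). Every interval crosses 0, and the red points of Notch1, Jag1, Jag2, Rbpj and Hes1 fall on both sides of 0.

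The members were not high in the same libraries. Of the 10, 5 (Notch3, Jag2, Dll1, Lfng and Hes1) had their highest value in GFP-positive replicate 2, 2 (Notch1 and Jag1) in GFP-positive replicate 3, 2 (Notch2 and Hey1) in GFP-positive replicate 1 and 1 (Rbpj) in GFP-negative replicate 2. The number of members at 1 FPKM or more was 2, 7 and 4 in the GFP-negative libraries and 7, 8 and 4 in the GFP-positive ones. Profiles over the 6 libraries were also compared with all tested genes by the root-mean-square distance of gene-centred log2(FPKM + 1) values. Nearest to Hes1 were Trim41 (distance 0.092), Pcbp1 (0.15) and U2af1 (0.16). Nearest to Jag1 were Nipbl (0.27), Gm15987 (0.29) and Xpo6 (0.30), and nearest to Notch1 were Phf12 (0.17), Prr14l (0.21) and Cdkn1a (0.22), a cyclin-dependent kinase inhibitor gene. Cdkn1a stood at 39.4, 79.4 and 137 FPKM in GFP-negative and at 83.5, 141 and 341 FPKM in GFP-positive libraries. Trim41 stood at only 0 to 2.56 FPKM, Phf12 at 0 to 4.91 FPKM and Prr14l at 0 to 5.38 FPKM. Pcbp1 and U2af1 stood at 36.3 to 134 FPKM. Each was picked as nearest among all 9423 tested genes over 6 values.

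A wider list of 67 Notch pathway genes showed which parts of the machinery were present. Of these, 37 reached the limit for testing and 0 were called (limma, adjusted p below 0.05). The difference was above 0 for 27 of the 37, with a median of 0.68. Over all genes 68.6% were above 0, with a median of 0.63. Without GFP-negative replicate 1 the medians were 0.11 for the list and 0.03 for all genes, and with quantile normalization 0.09 and 0.04. Groups did not overlap for 5 of the 37, named here after their values were seen. The corepressor genes Ctbp2, Tle1 and Tle4 and the ubiquitin ligase gene Dtx3l were higher in every GFP-positive library than in any GFP-negative one. Crebbp, a histone acetyltransferase gene, was lower in every one. Ctbp2 stood at 0.0340, 6.89 and 6.68 FPKM against 12.3, 11.3 and 10.8 FPKM. Tle4, of the Groucho family that Hes proteins recruit, stood at 0.890, 2.29 and 2.61 FPKM against 8.12, 7.48 and 5.35 FPKM. Tle1, of the same family, was listed at 0 throughout the GFP-negative group, against 0.845, 11.2 and 0.0479 FPKM. Dtx3l stood at 0.000595, 0 and 0.514 FPKM against 1.15, 3.66 and 1.01 FPKM. Tle1 and Dtx3l reached the limit for testing only through their GFP-positive values, so their separation carries little weight. Beside the 4 higher and 1 lower stand 8.85% and 2.44% of all genes.

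Receptors and ligands outside the 10 were mostly listed at 0. Notch4, Dll3, Dll4 and Dner were listed at 0 in all 6 libraries, and Dlk1 reached 0.0071 FPKM at most. Dlk2, a Delta-like protein without the domain by which ligands bind Notch, was listed at 0 in GFP-negative replicate 1 and stood at 96.1 and 41.9 FPKM in GFP-negative replicates 2 and 3. Its GFP-positive values were 94.0, 123 and 59.5 FPKM. It exceeded each canonical ligand in those 5 libraries.

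Among the enzymes that modify Notch with sugars, Rfng (Radical fringe) was the highest, listed at 0 in GFP-negative replicate 1 and between 5.71 and 39.8 FPKM in the other 5 libraries, each time above Lfng. Mfng (Manic fringe) was at 0 throughout. Poglut1, an O-glucosyltransferase gene, stood at 0 to 14.8 FPKM. Pofut1, the O-fucosyltransferase gene for the sugar that fringe enzymes extend, was highest in GFP-negative replicate 1 at 11.6 FPKM and at most 1.66 FPKM elsewhere.

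The protease that frees the intracellular part of Notch was represented unevenly. Psenen, a small subunit gene of gamma-secretase, stood at 325, 224 and 257 FPKM in GFP-negative and at 304, 161 and 176 FPKM in GFP-positive libraries, with overlap. Aph1a, another subunit gene, stood at 8.92 to 21.4 FPKM in all 6 libraries. Ncstn, the gene for nicastrin, was listed at 0 in GFP-negative replicate 1 (0, 11.7 and 6.42 FPKM against 3.54, 32.3 and 24.7 FPKM). These genes belong to the role of proteolytic activation, which also counts proteases outside gamma-secretase. The median difference of the 8 tested genes of this role was -0.11, with 4 above 0. Over all genes 68.6% were above 0, with a median of 0.63.

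Genes for trafficking and ubiquitin ligases were led by Nedd4, at 14.5 to 43.4 FPKM in all 6 libraries, and Numb, an inhibitor of Notch, stood at 0.0107 to 8.75 FPKM. In the nuclear complex Snw1, a coactivator, was highest at 8.96 to 68.7 FPKM. Of the corepressor genes, 9 were tested and 8 had a difference above 0, with a median of 1.48, beside 68.6% above 0 and a median of 0.63 over all genes. The most abundant were Hdac2 (16.1 to 142 FPKM), Hdac1 (0 to 74.1 FPKM), Ctbp1 (1.21 to 110 FPKM) and Ncor1 (1.37 to 57.5 FPKM), each lowest in GFP-negative replicate 1. The corepressor median was not computed without that library, where the median of the wider list fell to 0.11 once it was left out. Tle1 counts among the 9 tested, though it reached the limit only through its GFP-positive values.

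Among the other Notch targets and the bHLH relatives of Hes1 on the list, few were detected. Hes3, Hes5, Hes7, Hey2 and Heyl were at 0 in all 6 libraries, and Hes2 was above 0 only in GFP-positive replicate 2 (3.87 FPKM). Nrarp, a direct target that feeds back on Notch, was listed at 0 in GFP-negative replicate 1 and stood at 21.0 and 21.7 FPKM in the others of that group. Its GFP-positive values were 3.77, 24.5 and 15.7 FPKM. Hes6, which is known to oppose Hes1, stood at 0.0825, 62.1 and 0 FPKM and at 60.1, 17.7 and 21.6 FPKM. Bhlhe40, a related bHLH repressor gene, stood at 18.5 to 67.7 FPKM in all libraries.

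**Figure D4:**
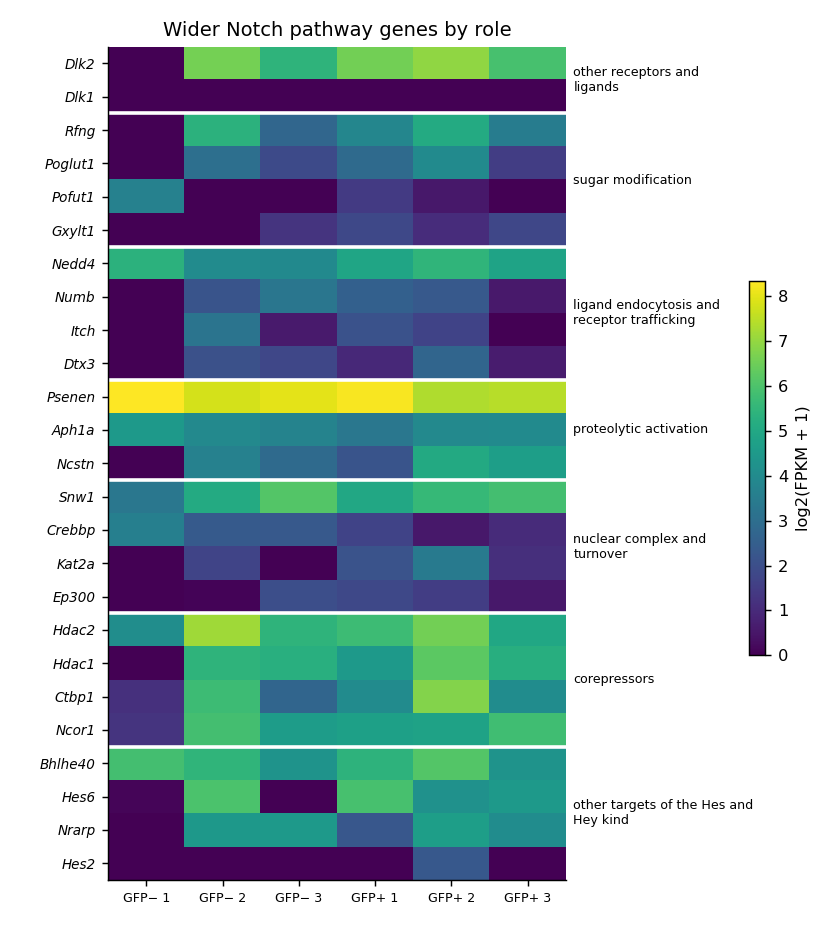
Level of the most abundant genes of each role of the wider Notch list (rows, up to 4 per role, genes at 0 in every library left out) in each library (columns), coloured by log2(FPKM + 1). Psenen is high in all 6 columns, and the first column, GFP-negative replicate 1, is at or near 0 for many genes, among them Dlk2, Rfng, Ncstn and Nrarp.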

How the data were processed

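RNA was measured in 6 libraries, 3 per group, made directly from sorted cells with a SMART-Seq v4 low-input kit, per the labels' protocols. This chemistry does not mark strand, so overlapping antisense reads cannot be told apart. The authors deposited FPKM values, 1 per gene and library. The file's title says counts, but the values are not whole. STAR 2.5, Cufflinks 2.2.1, DESeq2 and mm9 are named in the submitters' processing notes, with no role or order, and the annotation is not given in the sources used here. An exact 0 can be a failed estimate, since 1 of 16 genes that every cell uses was at 0 in each of GFP-negative replicates 1 and 2. Of 24043 rows, 27 whose symbols had become dates were left out.

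Values were analysed as log2(FPKM + 1), which understates changes of low genes. The 9423 genes averaging 1 FPKM or more were fitted in limma 3.58.1 (R 4.3.3), using its mean-variance trend and a model of group alone. Benjamini-Hochberg adjustment covered all of them, with calls made below 0.05, and the script was tested on simulated data. Fragments per library were estimated from 2172 genes with 1 annotated transcript of at least 1500 bp (GENCODE vM21), where FPKM times length piles up at the value of a single fragment. Fragment numbers per gene use the longest coding transcript and are approximate. Alternatives were other scalings, pseudocounts of 0.1 and 5 FPKM, other filters, library weights, a replicate block, and leaving out libraries.

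The members and lists were chosen with earlier results of these data known. Named are all 10 members, up to 4 genes of highest mean FPKM per role of the wider list, markers needed to state a list's level, and the 3 genes nearest in profile to each of the 3 most abundant members. Also named are wider-list genes at 0 in every library, and 5 whose groups did not overlap, picked after their values were seen. One gene of the wider list is not reported here.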

Additional observations from a re-analysis of the deposited data

How the results depend on the processing

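Over the 19 alternatives, 0 members and 0 genes of the wider list were called in any. Dll1 had a difference above 0 in the 18 alternatives that gave a value (1.07 to 3.60), none of which left out both of its high libraries. Hey1 gave a value (0.48 to 1.79) only where GFP-positive replicate 1 was kept, so its sign was not put to the test. The sign turned for Notch1 (-0.52) and Jag1 (-0.34) with quantile normalization. It turned for Hes1 with upper-quartile scaling (-0.10), median-of-ratios scaling (-0.13) and library weights (-0.023), and for Rbpj with a pseudocount of 0.1 FPKM (0.088) and with library weights (0.12). Leaving out libraries moved Hes1 between -0.10 (without GFP-negative replicate 1) and 0.83, Rbpj between -0.59 and 0.22 (without GFP-positive replicate 3) and Jag2 between -0.13 (without both replicate 1 libraries) and 1.53, and the cause was not tested. The median over the members was 0.22 after quantile normalization, 0.25 with library weights and 0.27 to 1.23 when libraries were left out. The median of the wider list was 1.57 with a pseudocount of 0.1 FPKM. Over all genes, library weights called 8, and leaving out libraries called 0 to 1, the 1 without GFP-negative replicate 2. Leaving out libraries moved the summed ligand difference of 15.8 FPKM between 13.1 and 18.7, and scaling to 13.7 and 11.7. Since the groups did not overlap for this sum, leaving out libraries could not turn its sign. Quantile normalization was not applied to it. A filter of at least 1 FPKM in all 6 libraries, chosen after seeing the data, kept only Notch1 and Hes1.

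The replicate numbers are shared by both groups, and the deviations of same-numbered libraries correlated by 0.13, 0.17 and 0.0089 for numbers 1 to 3. For numbers 1 and 2 this was each library's highest correlation with the other group. Such correlations cannot settle whether the numbers mark pairs. The labels do not state it, so the main fit did not take the numbers as pairs. Sample names of both groups also share a prefix per number, whose meaning the labels do not give. Not every library correlated best with its own number. With the replicate number as a block, 0 genes were called (479 at an unadjusted p below 0.05), and the differences stayed at 0.98 for Notch1 (limma adjusted p = 0.77) and 2.15 for Dll1 (limma adjusted p = 0.74). Members below 1 FPKM rest on few fragments in some libraries, which limits what the depth can show for them.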
